A study of Mus musculus with 6 samples.

Results

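The genes described here are 10 members of the bone morphogenetic protein (BMP) pathway, chosen by symbol from a table of 14327 genes: the receptors Bmpr1a and Bmpr2, the BMP SMADs Smad1 and Smad5, the inhibitory SMADs Smad6 and Smad7, and the ID genes Id1, Id2, Id3 and Id4. All 10 were in the table, and 8 averaged 1 FPKM or more and entered the test. The data were 6 RNA-seq libraries of neurospheres, suspended balls of cultured neural precursors, derived from the mouse hippocampus at postnatal day 0 and kept in medium with the growth factors EGF and bFGF. The genotype was given as WT for 3 libraries and as conditional knockout (cKO) of Slc22a17, which encodes a receptor for the iron-carrying protein lipocalin 2, for the other 3. The Cre driver, the deleted part of the gene, the sex of the mice and whether libraries of a group came from separate animals or cultures are not stated in the labels, and the p-values below therefore rest on library-to-library spread that could be technical.

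BMP ligands bind pairs of serine/threonine kinase receptors, in which a type II receptor such as BMPR2 activates a type I receptor such as BMPR1A. The type I receptor phosphorylates SMAD1 and SMAD5, which join SMAD4, enter the nucleus and switch on target genes, the ID genes and the inhibitory SMADs among them. ID proteins lack a DNA-binding region and hold E proteins away from proneural partners, and in the postnatal hippocampus BMP signalling is known to keep stem cells quiescent and to favour astrocytes over neurons.

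The transcript of Slc22a17 was not lost. Its mean was 185 ± 17.8 FPKM for WT and 172 ± 12.7 FPKM for cKO-labelled libraries (SD, n = 3 each; exact permutation test, two-sided p = 0.5, with 0.1 the lowest value possible for 3 against 3). Every direction below is therefore one between libraries by their labels. The Y-linked transcripts Ddx3y and Eif2s3y together stood at 0.10 and 0.07 FPKM in WT replicates 1 and 2, at 25.9 FPKM in WT replicate 3 and at 43.8 to 51.2 FPKM in cKO-labelled libraries, so that group and Y-linked share cannot be told apart. The 8 neural stem cell markers summed to 3580 to 4069 FPKM in each library, mostly from Fabp7, Vim and Slc1a3. Not all were abundant, with Pax6 at 10.8 to 12.6 FPKM and Hes5 at 2.58 to 5.57 FPKM. Over all genes, 3 of 11596 tested passed an adjusted p of 0.05 in limma (0.0259%), and 0 of the 8 tested members were among them.

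The promoters of the ID genes are shown first, because these genes varied most between libraries among the tested members. RefSeq (GRCm38.p6) gave the 250 bases before the start site of Id2, Id3 and Id4. Id1 was not matched. Capitals mark, on either strand, CCAAT boxes (CCAAT), TATA-type letters (TATAA), the GC-rich SMAD-type box GGCGCC and the SMAD box CAGAC, while E-boxes are left in lower case. The windows are chr12:25096093-25096342 (minus strand) for Id2, chr4:136143572-136143821 (plus strand) for Id3 and chr13:48260866-48261115 (plus strand) for Id4.
Id2: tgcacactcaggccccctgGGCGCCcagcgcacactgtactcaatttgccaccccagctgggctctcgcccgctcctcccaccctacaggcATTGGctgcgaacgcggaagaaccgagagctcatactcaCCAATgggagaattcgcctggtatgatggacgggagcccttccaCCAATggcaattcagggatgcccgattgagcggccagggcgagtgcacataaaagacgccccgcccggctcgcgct
Id3: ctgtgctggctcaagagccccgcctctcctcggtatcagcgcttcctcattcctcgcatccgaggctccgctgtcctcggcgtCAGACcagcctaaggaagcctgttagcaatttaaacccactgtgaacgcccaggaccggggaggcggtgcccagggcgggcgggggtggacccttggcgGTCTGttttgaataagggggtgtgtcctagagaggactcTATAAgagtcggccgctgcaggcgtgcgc
Id4: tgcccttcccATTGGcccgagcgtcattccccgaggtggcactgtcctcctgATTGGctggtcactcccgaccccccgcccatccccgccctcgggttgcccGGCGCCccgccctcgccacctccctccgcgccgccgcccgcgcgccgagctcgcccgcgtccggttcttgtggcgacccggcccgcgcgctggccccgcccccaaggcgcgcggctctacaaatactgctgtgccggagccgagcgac
The Id2 window held 3 CCAAT boxes, whose first letters lie 159, 120 and 76 bases before the start site, and the Id4 window held 2, at 240 and 198 bases. Id3 had none, but held TATAA at 29 bases and CAGAC at 167 and 68 bases. GGCGCC lay at 231 bases in Id2 and at 148 bases in Id4. Of 32851 promoter windows of the same length, 33.8% held CCAAT, 22.8% TATAA, 42.2% CAGAC and 9.59% GGCGCC. An E-box (CANNTG, the letters bound by the E proteins that ID proteins antagonise) was found in Id2 only, at 196 bases, and 66.2% of all windows held one. No 2 of these matches overlapped. They describe letters and do not mark binding sites.

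Among the members, levels per transcript length differed widely. By the mean of all 6 libraries the order was Id2 (44.02 FPKM), Bmpr1a (39.2 FPKM), Smad5 (30.04 FPKM), Id3 (29.9 FPKM), Id4 (24.2 FPKM), Smad1 (15.2 FPKM), Bmpr2 (11.5 FPKM), Id1 (9.77 FPKM), Smad7 (0.778 FPKM) and Smad6 (0.413 FPKM). The libraries of neighbours in this order overlapped except between Bmpr1a and Smad5, between Smad1 and Bmpr2, between Id1 and Smad7, and between Smad7 and Smad6. The transducers and ID genes were thus well expressed, while both inhibitory SMADs lay below 1.1 FPKM in every library.

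The receptors did not differ between the groups beyond their spread. Bmpr1a (identifier 12166, chromosome 14, 34411061 to 34503336 in GRCm38), a type I receptor, read 37.5, 47.6 and 35.5 FPKM in the respective WT replicates and 36.5, 41.7 and 36.2 FPKM in the cKO-labelled ones. WT replicate 2 was the highest and the groups overlapped, with means of 40.2 ± 6.50 and 38.1 ± 3.08 FPKM (log2 difference -0.066, SE 0.11, adjusted p = 0.858 by limma). Bmpr2 (identifier 12168, chromosome 1, 59764279 to 59878081), the type II partner, had 10.8, 13.07 and 10.4 FPKM across the WT replicates (1 to 3) against 13.08, 10.8 and 10.6 FPKM across those labelled cKO. WT replicate 2 and cKO replicate 1 were level at the top (log2 fold change 0.0099, SE 0.10, adjusted p = 0.982). The 95% interval of the fitted change ran from 80.3% to 114% of WT for Bmpr1a and from 85.3% to 119% for Bmpr2.

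Smad1 and Smad5 were lower in all cKO-labelled libraries than in any WT library, but neither passed the test over all genes. Smad1 (identifier 17125, chromosome 8, 79338395 to 79399428), which carries the signal from the type I receptor to the nucleus, read 15.8, 17.7 and 15.3 FPKM in the respective WT replicates and 14.1, 14.5 and 13.97 FPKM in the cKO-labelled ones. The cKO-labelled libraries lay close together below the lowest WT library, with means of 14.2 ± 0.29 FPKM against 16.3 ± 1.23 FPKM in WT, or 87.3% of WT. The log2 fold change was -0.18 (SE 0.068, unadjusted p = 0.0270, adjusted p = 0.335 by limma). Smad5 (identifier 17129, chromosome 13, 56703010 to 56742378), which acts beside SMAD1 in the same step, had 31.9, 33.3 and 31.05 FPKM across the WT replicates (1 to 3) against 29.4, 25.9 and 28.7 FPKM across those labelled cKO. Its means were 32.1 ± 1.14 and 28.01 ± 1.84 FPKM, or 87.4% of WT, with a log2 fold change of -0.19 (SE 0.065, unadjusted p = 0.0177, adjusted p = 0.297 by limma). Of all tested genes, 17.2% had groups that did not overlap, 10.2% were lower in cKO-labelled libraries without overlap and 7.82% were lower at an unadjusted p under 0.05. The 2 SMADs were the only ones of the 8 tested members in either class, and none was higher in this way. The 8 cell cycle markers summed to 359, 413 and 399 FPKM (WT) and 291, 273 and 366 FPKM (cKO-labelled), with cKO replicate 3 above WT replicate 1. All 8 had a lower cKO mean, 3 of them without overlap and 6 at an unadjusted p under 0.05, but 0 passed (lowest adjusted p = 0.209 by limma). Their part in the values of Smad1 and Smad5 was not tested. When the Y-linked share was added as a covariate, the log2 fold change was 0.0055 for Smad1 (adjusted p = 0.999 by limma) and -0.16 for Smad5 (adjusted p = 0.949). Within groups that share varied mainly through WT replicate 3, at 53.4% of the cKO mean against 0.21% and 0.14% in WT replicates 1 and 2. The covariate fit thus rests largely on WT replicate 3 and does not separate group from Y-linked share. In bulk RNA, fewer cells of a type and less RNA per cell cannot be told apart.

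**Figure D1:**
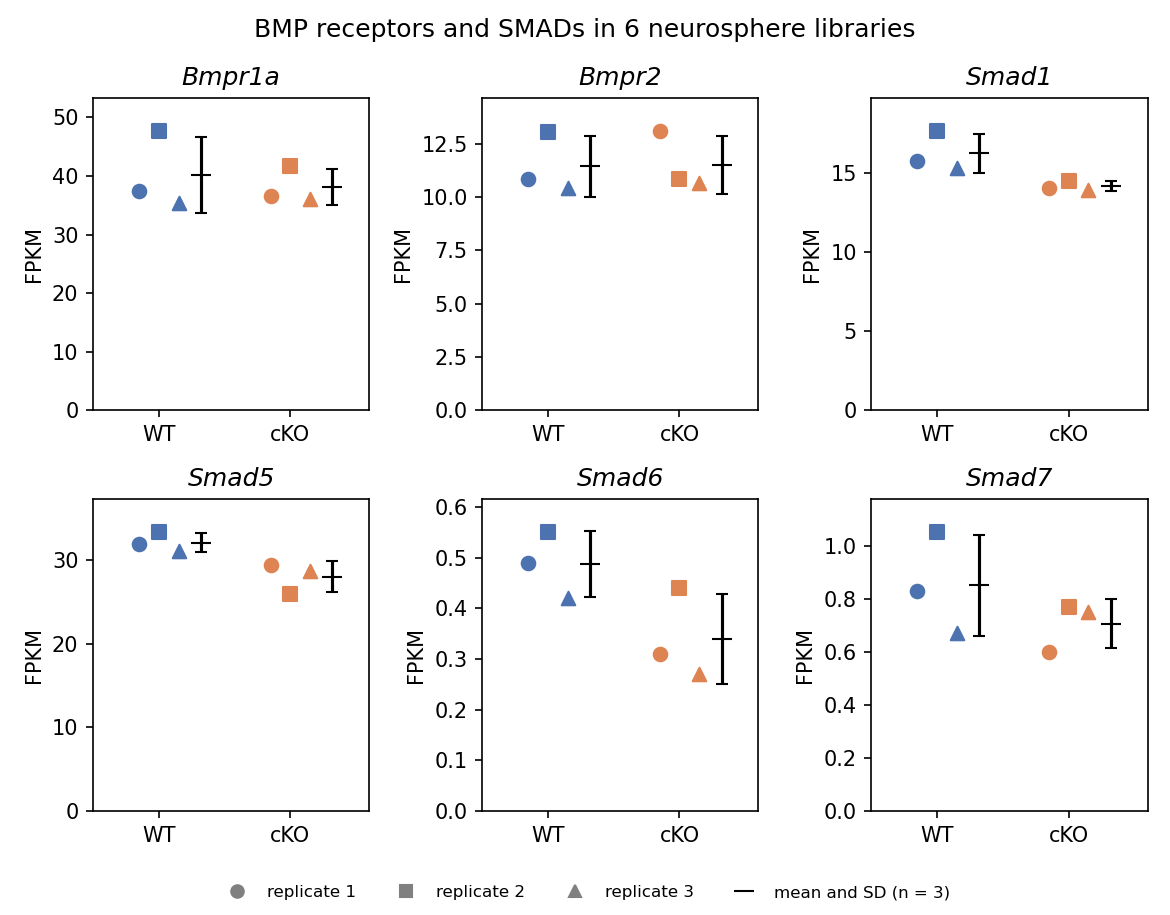
FPKM (vertical axes, from 0) of the receptors and SMADs in each library, by group, with a marker shape for each replicate number and the mean and SD beside the points (n = 3). Smad1 and Smad5 show no overlap between the groups, at 87.3% and 87.4% of the WT mean, while Bmpr1a, Bmpr2, Smad6 and Smad7 overlap.

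The inhibitory SMADs, which block the pathway and are themselves switched on by it, were below the filter. Smad6 (identifier 17130) read 0.49, 0.55 and 0.42 FPKM in the respective WT replicates and 0.31, 0.44 and 0.27 FPKM in the cKO-labelled ones. Only cKO replicate 2 reached into the WT range, above WT replicate 3. Fitted without the filter, its log2 fold change was -0.15 (SE 0.068, adjusted p = 0.460 by limma). Smad7 (identifier 17131) had 0.83, 1.05 and 0.67 FPKM across the WT replicates (1 to 3) against 0.60, 0.77 and 0.75 FPKM across those labelled cKO, with overlapping groups (log2 fold change -0.11, SE 0.089, adjusted p = 0.696). A pseudocount of 1 FPKM shrinks the change of genes this low, and the ratio of the group means was 69.9% for Smad6 and 83.1% for Smad7.

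The ID genes differed more between libraries of the same label than between the labels. Id1 (identifier 15901, chromosome 2, 152736251 to 152737410), which holds stem cells undifferentiated, read 8.12, 16.2 and 7.17 FPKM in the respective WT replicates and 5.44, 11.3 and 10.4 FPKM in the cKO-labelled ones. Id2 (identifier 15902, chromosome 12, 25093799 to 25096092) had 31.4, 78.2 and 26.4 FPKM across the WT replicates (1 to 3) against 30.8, 54.2 and 43.1 FPKM across those labelled cKO. For both genes replicate 2 was the highest library of its group, and WT replicates 1 and 3 lay with cKO replicate 1 at the low end. Id3 (identifier 15903, chromosome 4, 136143822 to 136145392) read 24.3, 49.7 and 23.9 FPKM in the respective WT replicates and 22.3, 29.7 and 29.8 FPKM in the cKO-labelled ones, so that WT replicate 2 stood apart from the rest. Id4 (identifier 15904, chromosome 13, 48261116 to 48266028), the ID gene best known from neural precursors and from quiescent hippocampal stem cells, had 17.5, 27.6 and 18.4 FPKM across the WT replicates (1 to 3) against 18.2, 37.03 and 26.6 FPKM across those labelled cKO. Here cKO replicate 2 was the highest, and the groups overlapped as for the other 3 genes.

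**Figure D2:**
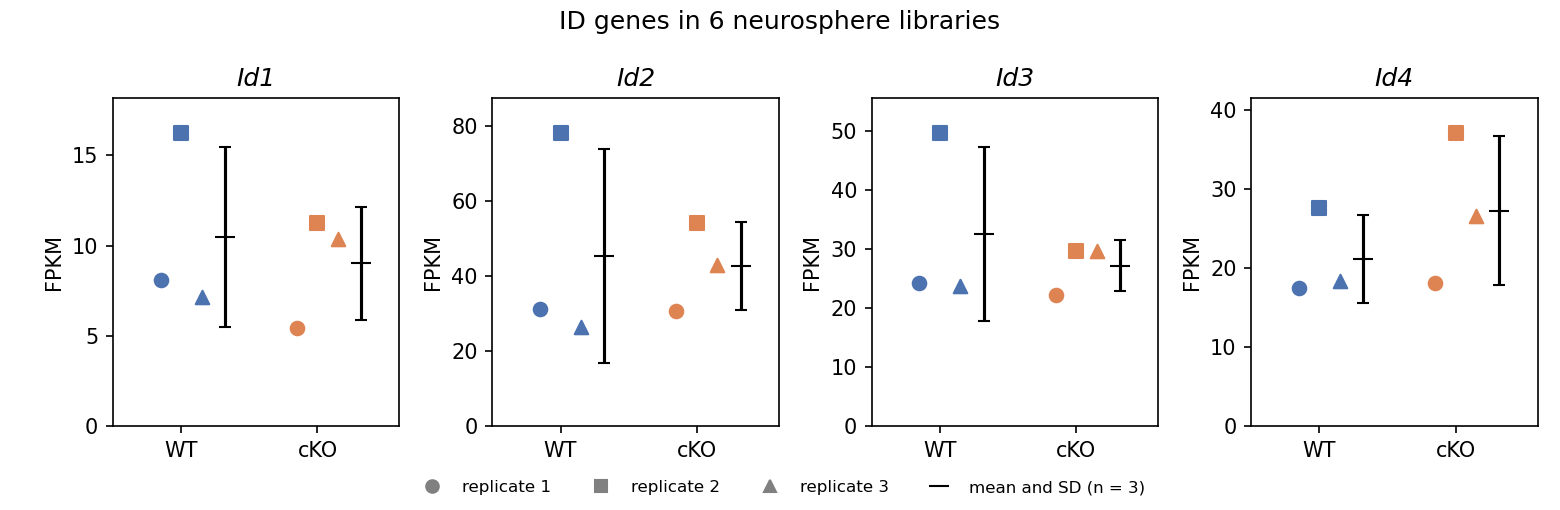
FPKM (vertical axes, from 0) of Id1, Id2, Id3 and Id4 in each library, by group, with a marker shape for each replicate number and the mean and SD beside the points (n = 3). The squares, replicate 2, lie highest in WT for all 4 genes, and the groups overlap in every panel.

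No ID gene passed. The means were 10.5 ± 4.98 and 9.03 ± 3.14 FPKM for Id1, 45.3 ± 28.5 and 42.7 ± 11.7 FPKM for Id2, 32.6 ± 14.8 and 27.2 ± 4.29 FPKM for Id3, and 21.1 ± 5.57 and 27.3 ± 9.45 FPKM for Id4 (WT, then cKO-labelled; SD, n = 3 each). The log2 fold change was -0.17 for Id1 (SE 0.31, adjusted p = 0.872 by limma), 0.047 for Id2 (SE 0.37, adjusted p = 0.976), -0.18 for Id3 (SE 0.26, adjusted p = 0.832) and 0.32 for Id4 (SE 0.24, adjusted p = 0.644). For Id2 the mean FPKM was lower in cKO-labelled libraries while the log2 fold change was above 0, so its direction depends on the scale. The 95% intervals were wide, from 54.1% to 146% of WT for Id1, 57.7% to 185% for Id2, 59.0% to 133% for Id3 and 84.9% to 185% for Id4. Changes within these bounds are therefore not excluded. The spread within groups was large for these genes. The residual SD on the log2 scale was 0.55 for Id1, 0.65 for Id2, 0.45 for Id3 and 0.43 for Id4, above that of 99.5%, 99.7%, 99.0% and 98.9% of tested genes. For Smad1 and Smad5 it was 0.074 and 0.075, above that of 29.9% and 30.2% of tested genes.

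The direction of Id1 and Id3 turned without WT replicate 2. The log2 fold change was then 0.16 for Id1, 0.52 for Id2, 0.16 for Id3 and 0.52 for Id4, all toward higher values in cKO-labelled libraries. None passed, with adjusted p-values of 0.914, 0.557, 0.783 and 0.609. Without WT replicate 3 the values were -0.38, -0.25, -0.35 and 0.24 (adjusted p = 0.659, 0.804, 0.606 and 0.745), and without cKO replicate 1 they were 0.12, 0.26, -0.045 and 0.58 (adjusted p = 0.904, 0.841, 0.970 and 0.393). Id2 was also below 0, at -0.13 and -0.14, when WT replicate 1 or cKO replicate 2 was left out (adjusted p = 0.965 and 0.927). With the Y-linked share added to the fit as a covariate the 4 values were 0.89, 1.52, 0.64 and 0.94 (adjusted p = 0.921, 0.921, 0.932 and 0.921). That fit rests largely on WT replicate 3 and does not separate group from Y-linked share. Smad1 and Smad5 ran from -0.22 to -0.12 and from -0.22 to -0.14 without single libraries. Their sign could not turn in this check, because their groups did not overlap, so it adds nothing to that result. WT replicate 2 was the highest library for 6 of the 8 tested members and for 8 of all 10, against 26.6% of all tested genes.

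**Figure D3:**
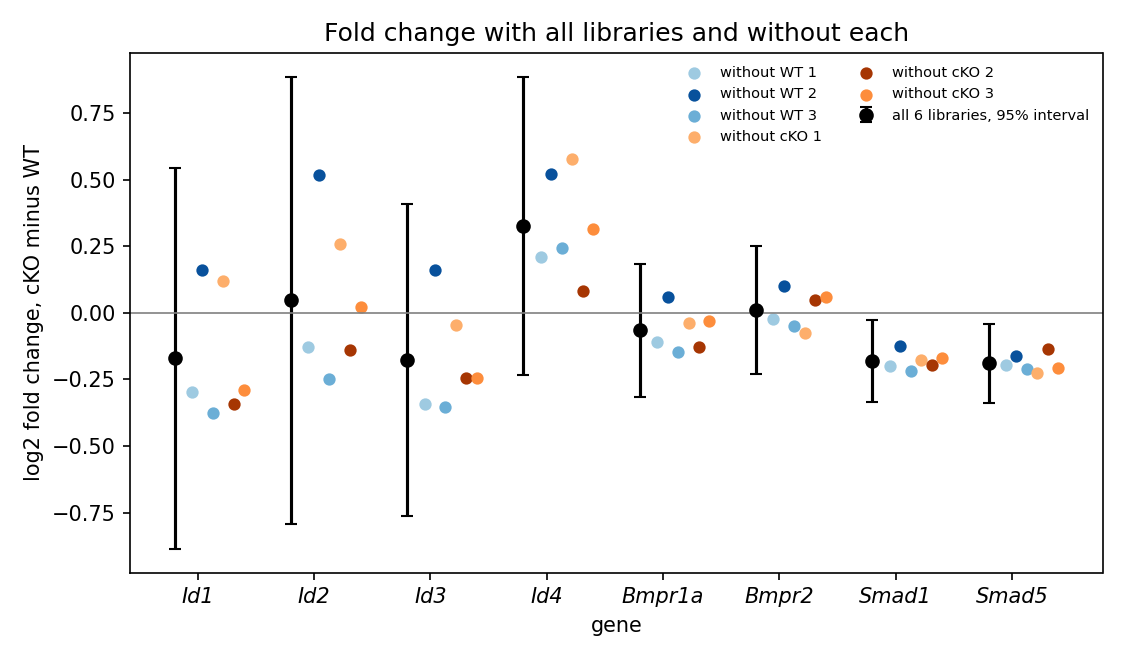
Log2 fold change (cKO minus WT, vertical axis) of the 8 tested members with all 6 libraries (black, 95% interval) and without each library in turn (coloured points). Id1, Id2 and Id3 each change sign with at least 1 library left out. Smad1 and Smad5 lie at -0.22 to -0.12 and -0.22 to -0.14, and could not change sign because their groups do not overlap.

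Together the 4 ID genes summed to 81.2, 172 and 75.9 FPKM (WT) and 76.7, 132 and 110 FPKM (cKO-labelled). Their proportions moved less than the sum. Id2 was the largest part in every library, at 34.8% to 45.5% of the sum, and Id1 the smallest, at 7.09% to 9.996%. Id4 made up 16.1% of the sum in WT replicate 2 and 28.01% in cKO replicate 2, the lowest and the highest share. Id1, Id2 and Id4 were higher in both of these libraries than in any other. Id3 in cKO replicate 2, at 29.7 FPKM, was level with cKO replicate 3, and its share there was its lowest, at 22.4%.

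The shared movement of the ID genes was described by correlations of log2(FPKM + 1) over the 6 libraries, for the 6 pairs of ID genes and for each ID gene with the tested ligands Bmp4 and Bmp7, 14 relations in all. Pearson's r was 0.93 between Id1 and Id2 (exact permutation p = 0.00972, adjusted over the 14 relations p = 0.0311), 0.94 between Id1 and Id3 (exact permutation p = 0.00278, adjusted p = 0.0311) and 0.94 between Id2 and Id3 (exact permutation p = 0.00833, adjusted p = 0.0311). Spearman's rho was 0.94, 0.94 and 0.89 for these pairs (exact permutation p = 0.0167, 0.0167 and 0.0333, adjusted p = 0.0778 each). Id4 followed less closely, with r of 0.74, 0.79 and 0.60 to Id1, Id2 and Id3 (exact permutation p = 0.0778, 0.0528 and 0.186, adjusted p = 0.0990, 0.0924 and 0.20). The rho of Id4 with these genes was 0.77, 0.71 and 0.66 (exact permutation p = 0.103, 0.136 and 0.175, adjusted p = 0.131, 0.147 and 0.175). Without the 2 libraries farthest from the median of the first gene, r was 0.86 to 0.99 over the 6 pairs of ID genes. Of the 14 relations 6 passed by r and 0 by rho after adjustment. These 6 include Bmp4 with Id2 and with Id3, and Bmp4 passed the filter only through WT replicate 2. The adjusted p-values of the ID pairs were computed together with those relations and depend on them. The p-values pool both groups. With values centred within each group, a check chosen after seeing the data and given as a description, r was 0.95, 0.94 and 0.98 for Id1 with Id2, Id1 with Id3 and Id2 with Id3, and 0.92, 0.86 and 0.79 for Id4 with Id1, Id2 and Id3. The independence of the libraries is not stated.

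Bmp4, a ligand of the pathway, varied in the same libraries. It read 0.12, 3.42 and 0.28 FPKM in the respective WT replicates and 0.78, 1.62 and 1.47 FPKM in the cKO-labelled ones, so that the highest WT library was at 28.5 times the lowest (log2 fold change between groups 0.29, SE 0.46, adjusted p = 0.853 by limma). WT replicate 2 was again the highest and cKO replicate 2 the next. Bmp4 passed the filter, at a mean of 1.28 FPKM, only through WT replicate 2, where Id1, Id2 and Id3 were also highest. The p-values of its correlations thus rest on a gene selected through that library, and both other WT values were near the floor. The r of Bmp4 was 0.94 with Id2 (exact permutation p = 0.0111, adjusted p = 0.0311) and 0.89 with Id3 (exact permutation p = 0.0167, adjusted p = 0.0389), and rho was 0.83 and 0.71 (exact permutation p = 0.0583 and 0.136, adjusted p = 0.117 and 0.147). Without WT replicates 1 and 2, r was 0.95 and 0.82. With Id1 and Id4 the r of Bmp4 was 0.81 and 0.76 (exact permutation p = 0.05 and 0.0736, adjusted p = 0.0924 and 0.0990), and its rho was 0.77 and 0.89 (exact permutation p = 0.103 and 0.0333, adjusted p = 0.131 and 0.0778). Without the same libraries r was 0.73 and 0.86. Bmp7, the more abundant ligand, went the other way, at 9.55, 7.88 and 9.07 FPKM (WT) and 10.8, 6.60 and 8.69 FPKM (cKO-labelled). Its r with Id4 was -0.92 (exact permutation p = 0.00694, adjusted p = 0.0311), with a rho of -0.94 (exact permutation p = 0.0167, adjusted p = 0.0778), and -0.88 without cKO replicates 1 and 2. With Id1, Id2 and Id3 it was -0.76, -0.71 and -0.57 (exact permutation p = 0.0764, 0.114 and 0.239, adjusted p = 0.0990, 0.133 and 0.239), with a rho of -0.89, -0.77 and -0.77 (exact permutation p = 0.0333, 0.103 and 0.103, adjusted p = 0.0778, 0.131 and 0.131). Without cKO replicates 1 and 2 these r were -0.92, -0.92 and -0.95. Centred within groups, r with Id1, Id2, Id3 and Id4 was 0.88, 0.95, 0.99 and 0.76 for Bmp4 and -0.80, -0.71, -0.62 and -0.97 for Bmp7.

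**Figure D4:**
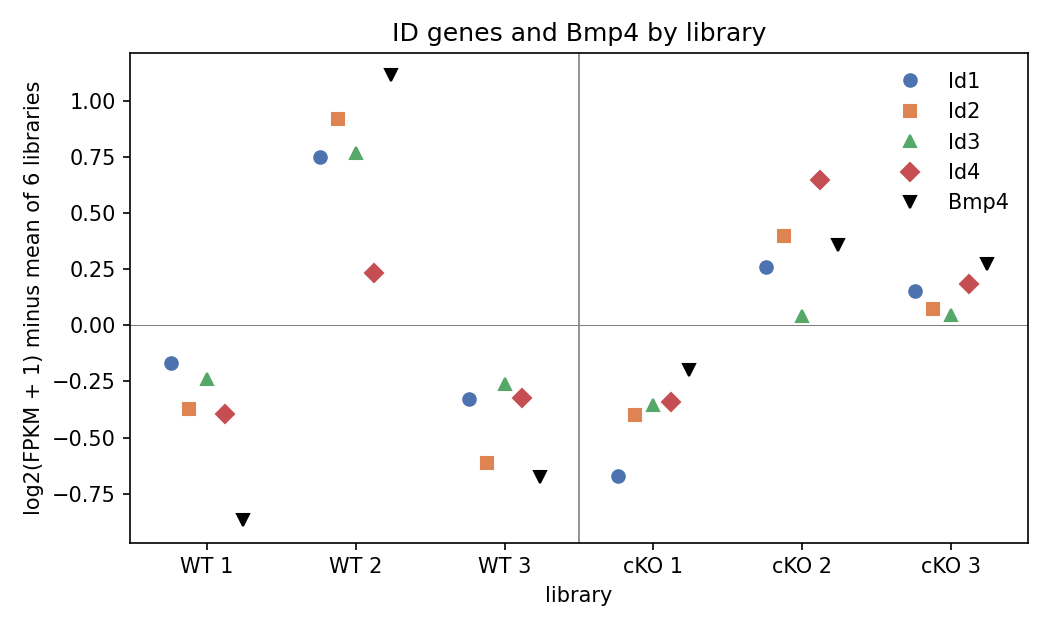
Log2(FPKM + 1) of Id1, Id2, Id3, Id4 and Bmp4 in each library, as the difference from the gene's mean over the 6 libraries (vertical axis). All 5 genes lie above 0 in WT replicate 2, cKO replicate 2 and cKO replicate 3 and below 0 in the other 3 libraries.

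Some markers of other cells moved with the ID genes. Sox10, a marker of the oligodendrocyte lineage, had 5.04, 14.4 and 4.76 FPKM across the WT replicates (1 to 3) against 4.70, 9.33 and 5.74 FPKM across those labelled cKO, while the 5 markers of that lineage together summed to 371 to 497 FPKM and were not highest in WT replicate 2. The 5 microglial markers summed to 3.14, 3.82 and 2.76 FPKM (WT) and 1.86, 4.89 and 3.93 FPKM (cKO-labelled), again with replicate 2 the highest of each group. Not all 5 had this order. Within WT, P2ry12 and Tmem119 were highest in replicate 1, and within cKO-labelled libraries Aif1 was highest in replicate 3. Of the 5, 4 lay below the filter. The 5 astrocyte markers went different ways. Gfap was lowest in WT replicate 2, at 1661 FPKM against 2408 to 2741 FPKM elsewhere, and made up most of their sum of 2181 to 3284 FPKM. Aqp4 was highest in replicate 2 of each group, at 188 and 192 FPKM against 142 to 175 FPKM elsewhere. Gjb6 was higher in all cKO-labelled libraries, at 22.5 ± 1.90 against 13.6 ± 1.64 FPKM (adjusted p = 0.103 by limma), S100b averaged 8.36 and 6.13 FPKM with overlapping groups (adjusted p = 0.388), and Aldh1l1 stood at 278 to 355 FPKM. The part of these cells in the ID values was not tested. Endothelial cells, which express Id1, Id3 and Smad6 strongly, left little trace, with 3 of 7 markers in the table and sums of 0.62 to 1.62 FPKM that were highest in WT replicate 1. The sums over the other lists were 76.8 to 90.7 FPKM over 5 neuronal markers (mostly Map2), 3.60 to 5.40 FPKM over 4 markers of mural cells or fibroblasts and 23.3 to 30.8 FPKM over 4 ependymal or choroid plexus markers (mostly Foxj1). Sox10 was picked out with its values known.

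The genes whose profile over the 6 libraries was most like that of each ID gene were taken by Pearson's r of log2(FPKM + 1) among all tested genes, as a description. For Id1 they were Tle4, a Groucho-type co-repressor (r = 0.99), Rab3b (0.99) and Sec14l1 (0.98). Tle4 read 12.9, 15.4 and 12.6 FPKM in the respective WT replicates and 11.9, 14.2 and 14.03 FPKM in the cKO-labelled ones. For Id2 they were the metal transporter Slc30a10 (0.99), Dph7 (0.99) and Cntnap2 (0.99), for Id3 Ppp2r5c (0.99), Lclat1 (0.99) and Thap3 (0.98), and for Id4 Colca2 (0.997), Oscp1 (0.99) and Camk2d (0.98). No gene was named for more than 1 ID gene.

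The wider pathway was followed through 6 lists with 79 genes, of which 65 were in the table and 50 were tested. None passed over all genes. At an unadjusted p under 0.05, 4 of the 50 were lower and 1 was higher, against 7.82% and 4.44% of all tested genes. Without overlap, 6 of the 50 were lower and 0 higher, against 10.2% and 7.07%. The median log2 fold change was -0.057 over the 50 genes and -0.12 over the 8 tested members, and -0.015 over all tested genes. Without WT replicate 2 the median of the members was 0.13. On the log2(FPKM + 1) scale, lower means were found for 38 of the 50, or 76.0%, and for 55.5% of all tested genes.

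Among the other receptors and co-receptors 0 of 7 tested passed. Bmpr1b, a type I receptor close to Bmpr1a, averaged 13.98 ± 1.93 FPKM in WT and 14.5 ± 2.18 FPKM in cKO-labelled libraries (adjusted p = 0.911 by limma). Acvr1, another type I receptor of BMPs, averaged 6.93 and 6.59 FPKM (adjusted p = 0.768), and the co-receptor Rgma 106 and 94.5 FPKM (adjusted p = 0.726). Neo1, a receptor of the RGM proteins, was lower without overlap, at 31.4 ± 0.56 and 29.4 ± 0.23 FPKM (log2 difference -0.093, adjusted p = 0.497). Per transcript length Bmpr1a was the most abundant type I receptor of the 3.

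Of the 8 tested antagonists and modulators outside the cell none passed. Bmper, a secreted regulator of BMP activity, averaged 4.36 ± 0.17 and 3.63 ± 0.61 FPKM (log2 difference -0.22, adjusted p = 0.454 by limma). Dand5, a secreted antagonist of the Cerberus family, averaged 3.10 and 3.70 FPKM (adjusted p = 0.484), and Chrd, which encodes the BMP-binding protein chordin, 1.42 and 1.16 FPKM (adjusted p = 0.614). Nog, the gene of noggin, was just under the filter, at 0.94, 1.92 and 0.84 FPKM (WT) and 0.58, 0.66 and 1.04 FPKM (cKO-labelled). WT replicate 2 was the highest for Nog as well, and the groups overlapped.

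Inside the cell, 0 of 19 tested SMADs, regulators and co-repressors passed, and 15 had lower means. Skil, the gene of SnoN, a SMAD co-repressor that SMAD signalling itself induces, had 6.82, 7.83 and 6.18 FPKM across the WT replicates (1 to 3) against 5.79, 4.94 and 5.08 FPKM across those labelled cKO. The groups did not overlap (log2 fold change -0.34, SE 0.097, adjusted p = 0.244 by limma). Smad4, the partner shared by BMP and TGF-beta SMADs, averaged 21.6 ± 0.81 and 19.99 ± 0.87 FPKM (log2 difference -0.11, adjusted p = 0.513). Smad9, the remaining BMP SMAD, was low, at 1.93 ± 0.16 and 1.68 ± 0.39 FPKM (adjusted p = 0.714). Zeb1, a zinc finger factor that binds SMADs, averaged 72.03 and 65.3 FPKM (adjusted p = 0.562).

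Among 8 tested genes often induced by BMP signalling, besides the ID genes, none passed, and those of lowest p went in both directions. Klf10, a Krüppel-like factor induced early by TGF-beta and BMP, read 16.0, 16.8 and 16.1 FPKM in the respective WT replicates and 11.1, 11.96 and 12.9 FPKM in the cKO-labelled ones. All 3 cKO-labelled libraries lay below all WT libraries (log2 fold change -0.41, SE 0.069, adjusted p = 0.126 by limma). Klf10 passed with library weights (log2 fold change -0.37, adjusted p = 0.0324), a setting that called 129 genes. Hes1, a repressor best known as a Notch target, averaged 11.9 ± 0.49 and 9.73 ± 1.59 FPKM without overlap (log2 fold change -0.28, adjusted p = 0.353). Tsc22d1, a leucine zipper protein induced by TGF-beta, averaged 74.03 ± 5.42 and 85.1 ± 5.10 FPKM (log2 difference 0.20, adjusted p = 0.323).

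The E proteins and bHLH factors that ID proteins can antagonise had lower means for 5 of 6 tested genes, and 0 passed. Tcf3, which encodes the E proteins E12 and E47, had 30.6, 31.3 and 32.7 FPKM across the WT replicates (1 to 3) against 27.2, 26.8 and 29.8 FPKM across those labelled cKO. The groups did not overlap (log2 fold change -0.17, SE 0.062, adjusted p = 0.322 by limma). Tcf12, another E protein, was also lower without overlap, at 45.5 ± 2.35 and 41.9 ± 1.47 FPKM (log2 difference -0.11, adjusted p = 0.477).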

How the data were processed

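RNA had been extracted from 6 neurosphere libraries by a kit made for lipid tissue, and a BGISEQ service had made and processed the data, per the labels' protocols. The values deposited are FPKM, 1 per gene and library with 2 decimals, per the file headers. The aligner Bowtie2 and the build GRCm38 (also mm10) appear in the submitters' processing notes. The counting tool, the annotation and the filters were not stated.

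Depth is not contained in FPKM. Low values of genes with only 1 known, short transcript were multiplied by its length and by trial depths. The products were searched for whole fragments (tolerance 0.1 fragment, 30 to 37 values a library). At the best of many depths tried 59.4% to 81.8% were whole, so whole reads could not be recovered and count models were not used. Values were analysed as log2(FPKM + 1) for genes that averaged 1 FPKM or more, which understates the change of low genes. The group comparison used limma 3.58.1 under R 4.3.3 (eBayes with an intensity trend, two-sided, Benjamini-Hochberg over all 11596 tested genes, threshold 0.05), a procedure tested on simulated data. Correlations and their exact permutations were computed with numpy 2.4.6, and ranks and adjusted p-values with scipy 1.17.1. Gene positions and promoters are from RefSeq, matched by identifier or symbol. Promoters were matched for 8 members, and the window of Smad7 was not used here. The members and lists were chosen with earlier results of these data known. Named are all members and, of each list, the 3 tested genes of lowest p with genes chosen by name (Bmp4, Bmp7, Bmpr1b, Acvr1, Smad4, Smad9 and Nog). A further gene of this rule is not reported here. Alternatives were other pseudocounts, filters, scalings, variance models, library weights, a replicate block, the Y-linked share (the sum of Ddx3y and Eif2s3y divided by its cKO mean) as a covariate, and leaving out libraries. Figures were drawn with matplotlib 3.10.9.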

Additional observations from a re-analysis of the deposited data

How the results depend on the processing

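No member passed the threshold in any of the 18 alternatives, and the lowest adjusted p was 0.108, for Smad5 with library weights. Smad5 stayed lower and Id4 higher in all 18, and Smad1 stayed lower in all but 1. Other filters, other variance models and the replicate block left the fold change of every member, Id4 included, as it was. They could not turn a sign, so these settings add nothing to the counts of 18. For Smad1 and Smad5, leaving out libraries or changing the pseudocount could not turn the sign either, because their groups did not overlap. The number of genes past the threshold, 3 with all libraries, was 0 without a filter, with quantile normalization, without the intensity trend, with the Y-linked covariate and against WT replicate 3 alone. The count was 129 with library weights, where 1 wider pathway gene (Klf10) passed, and 0 to 10 without single libraries: 0 without WT replicate 1 or cKO replicate 1, 10 without WT replicate 3, and 1 without cKO replicate 2 or 3. The median log2 fold change of the tested members, -0.12, was 0.072 with library weights, 0.50 with the covariate, 0.15 against WT replicate 3 alone and -0.22 to 0.13 without single libraries, with the highest value without WT replicate 2. The sign turned with library weights for Id1 (0.11) and Id3 (0.12). The fit with the Y-linked covariate rests largely on WT replicate 3. There the sign turned for Id1 (0.89), Id3 (0.64), Bmpr1a (0.36), Smad1 (0.0055), Smad6 (0.053) and Smad7 (0.22). Against WT replicate 3 alone, where the lone library is assumed to vary like the others, it turned for Id1 (0.24), Id3 (0.17), Bmpr1a (0.098) and Smad7 (0.030). Without single libraries Id1 ran from -0.38 to 0.16, Id2 from -0.25 to 0.52, Id3 from -0.35 to 0.16, Bmpr1a from -0.15 to 0.059 and Bmpr2 from -0.077 to 0.10. The causes were not tested. Same-numbered libraries did not deviate together throughout (correlations of deviations over genes -0.043, 0.30 and 0.26 for replicates 1 to 3), so the numbers were not taken as pairs. With the replicate number as a block 22 genes and no member passed (Smad5 adjusted p = 0.251, Id4 adjusted p = 0.163).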

Other observations

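Some genes of the BMP lists lay below the filter and entered no count above. Msx1, a homeobox gene that BMP signalling often induces, read 0.36, 0.30 and 0.30 FPKM in the respective WT replicates and 0.70, 0.66 and 1.18 FPKM in the cKO-labelled ones. The groups did not overlap, and the ratio of the means was 2.65 (limma without the filter, log2 fold change 0.47 on the log2(FPKM + 1) scale, SE 0.10, adjusted p = 0.255). Msx1 thus went the opposite way to Klf10. The ligand Bmp6 had 1.17, 1.34 and 0.59 FPKM across the WT replicates (1 to 3) against 0.50, 0.65 and 0.63 FPKM across those labelled cKO, with WT replicate 3 among cKO-labelled libraries (adjusted p = 0.420). Both genes were named after their values were seen, and both averaged less than 1 FPKM.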
